A study of Mus musculus with 8 samples.

Results

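Cdh1, Upp1, Il20rb, Asz1 and Tuba8 are 5 of the 16593 genes named on the array, grouped here as less studied genes with a large or genotype-dependent increase under interleukin-4 (IL-4). They were taken as every probe whose platform annotation carries 1 of these symbols, which gave 8 of 25697 probes. Cdh1, Asz1 and Tuba8 have 1 probe each, Il20rb has 2 and Upp1 has 3. All 8 passed the filter on dim probes, which asked for a signal over background on both duplicates of any group and left 14438 probes. The members were chosen from their IL-4 increases and from the difference of those increases between genotypes, so these values are given below as a description without a test. Statements that the arrays of 2 groups did not overlap are description as well, and weak evidence with 2 arrays a group. The share of all probes with such a separation is given only for the genotype difference of Upp1.

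Total RNA of mouse peritoneal macrophages was hybridised to Illumina MouseRef-8 bead arrays, 1 array per sample. The 4 groups of 2 arrays were Fcg-chain KO cells (KO) given recombinant IL-4 at 10 ng/ml for 6 h, KO cells left unstimulated, and wild-type (WT) cells with the same IL-4 treatment or left unstimulated. Strain C57BL/6 is given for both genotypes, and cells were plated overnight with L929 supernatant as a source of M-CSF before floating cells were removed. The labels tie no duplicate to an animal, so p-values measure only the spread between these arrays, which may be technical.

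IL-4 binds a receptor that signals through JAK kinases and the transcription factor STAT6, and it switches macrophages to a programme of tissue repair and lipid and amino acid metabolism. Cdh1 encodes E-cadherin, a calcium-dependent adhesion protein best known from epithelia and also described on IL-4 treated macrophages. Upp1 encodes uridine phosphorylase, which splits uridine into uracil and a ribose phosphate. Il20rb is a receptor subunit for the IL-10 family cytokines IL-19, IL-20 and IL-24. Asz1 encodes an ankyrin-repeat protein of germ cells that takes part in making piRNAs, the small RNAs that silence transposons. Tuba8 encodes an alpha-tubulin isotype, a building block of microtubules.

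The start-site windows of the genes whose genotype difference passed the test below are printed because these genes were also raised together by IL-4. They run 5′ to 3′ on the gene's strand, from 250 bases before to 50 after the annotated start, and come from RefSeq on build GRCm38.p6. Upp1 window 1 lies at chr11:9117758-9118057 on the plus strand, Asz1 at chr6:18109012-18109311 on the minus strand and Il20rb at chr9:100486424-100486723 on the minus strand. Capitals mark the only matches to 4 searched motifs, an AP-1 motif in Upp1 and a PU.1 motif in Asz1.
Upp1: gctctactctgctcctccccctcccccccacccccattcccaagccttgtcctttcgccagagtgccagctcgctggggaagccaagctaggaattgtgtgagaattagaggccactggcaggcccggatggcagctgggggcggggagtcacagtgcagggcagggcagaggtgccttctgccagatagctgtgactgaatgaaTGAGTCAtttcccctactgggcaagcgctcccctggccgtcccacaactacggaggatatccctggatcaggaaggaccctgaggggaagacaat
Asz1: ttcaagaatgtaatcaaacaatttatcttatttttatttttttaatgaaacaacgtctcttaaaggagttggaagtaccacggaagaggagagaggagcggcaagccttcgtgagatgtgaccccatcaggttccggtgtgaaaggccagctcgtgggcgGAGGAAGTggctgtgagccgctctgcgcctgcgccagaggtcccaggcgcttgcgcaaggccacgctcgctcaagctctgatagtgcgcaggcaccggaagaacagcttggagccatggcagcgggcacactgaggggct
Il20rb: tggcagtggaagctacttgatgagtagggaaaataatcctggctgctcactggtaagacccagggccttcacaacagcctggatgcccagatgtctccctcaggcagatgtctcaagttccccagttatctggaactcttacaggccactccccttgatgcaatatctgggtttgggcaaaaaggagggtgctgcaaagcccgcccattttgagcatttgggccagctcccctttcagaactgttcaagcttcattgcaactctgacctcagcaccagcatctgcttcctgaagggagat

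The 4 motifs were searched on both strands of the 6 windows that RefSeq gives for Asz1, Il20rb, Tuba8 and Upp1. The STAT6-type letters TTCNNNNGAA and the general STAT letters TTCNNNGAA were in none of the 6 windows. They occur in 6.95% and 8.3% of all 32851 windows. The AP-1 letters TGANTCA begin 45 bases before the start in Upp1 window 1, which overlaps Upp1 window 2 with the same match, and occur in 7.81% of all windows. The PU.1 letters GAGGAAGT begin 90 bases before the start in Asz1 and occur in 3.2% of all windows. Upp1 window 3, which is not printed, holds no match. Asz1 has 17 CpG dinucleotides in its window, Upp1 has 7 in window 1, 8 in window 2 and 13 in window 3, and Il20rb has 1. The median of all windows is 7. These are matches of letters, not measured binding sites.

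The quality of the arrays and the check of the knockout touch every result. Duplicates correlated at r = 0.9937 to 0.9943 over probes, and arrays of different groups at 0.9687 to 0.9878. Fcer1g, taken to be the gene deleted in KO because it encodes the Fc receptor gamma chain, had mean intensities of 89.2 ± 3.64 with IL-4 and 86.6 ± 1.27 unstimulated in KO, below background on all 4 arrays, against 10043 ± 181 and 12988 in WT (SD, n = 2 each). All 8 macrophage markers with a probe were above background in every group, and 5 of them differed between genotypes as given below. The background threshold, derived from the low values of each array, lay between 93.1 and 93.3 intensity units. In such cultures a change in a cell type's share and a change in RNA per cell cannot be told apart.

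Cdh1 was at the edge of detection in unstimulated cells and clearly above it with IL-4, at a similar level in both genotypes. Its intensity was 263 and 250 in KO with IL-4, against 95.9 and 99.1 in unstimulated KO. WT cells gave 275 and 280 with IL-4, against 98.1 and 93.1 unstimulated, the last being the 1 unstimulated array below the threshold. The stimulated and unstimulated arrays did not overlap in either genotype, and the stimulated KO arrays lay slightly below the stimulated WT arrays.

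On the log2 scale after background correction, the IL-4 increase of Cdh1 was 2.58 ± 0.13 in KO and 2.82 ± 0.13 in WT (SE), or 5.97- and 7.06-fold. It ranked 27th in KO and 11th in WT among the increases of 14438 probes. Because the unstimulated level lay near background, the size depends on the correction: without it the log2 increase was 1.40 in KO and 1.54 in WT. The genotype difference averaged over both conditions, KO minus WT, was -0.03 ± 0.09 (95% interval -0.23 to 0.17, adjusted p = 0.903). Its sign turned without WT_unstim replicate 1 (0.0292) and without KO_unstim replicate 1 (0.0052).

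Upp1 was raised by IL-4 in both genotypes and was several-fold lower in KO in each condition. Upp1 probe 1 (ILMN_2959291) had 702 and 1070 in KO with IL-4, against 135 and 240 in unstimulated KO. In WT it had 3549 and 3799 with IL-4, against 430 and 674 unstimulated. The groups therefore fell in the order WT with IL-4, KO with IL-4, unstimulated WT and unstimulated KO with no overlap between neighbours, so that IL-4 treated KO cells stood only slightly above unstimulated WT cells.

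Both other Upp1 probes gave nearly the same order of groups. Upp1 probe 2 had 332 and 522 in KO with IL-4, against 106 and 156 in unstimulated KO, and 1568 and 1796 in WT with IL-4, against 241 and 326 in unstimulated WT. Upp1 probe 3 had 219 and 289 in KO with IL-4, against 101 and 119 in unstimulated KO, and 905 and 996 in WT with IL-4, against 160 and 244 in unstimulated WT. For probe 3 the stimulated KO arrays overlapped the unstimulated WT arrays. The 3 probes read the same transcript and are not separate evidence.

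The IL-4 increase of Upp1 probe 1 was 2.86 ± 0.33 log2 units in KO and 2.94 ± 0.33 in WT (SE), or 7.25- and 7.66-fold. Probe 2 increased by 2.53 ± 0.31 in KO and 2.91 ± 0.31 in WT, and probe 3 by 2.11 ± 0.26 in KO and 2.76 ± 0.26 in WT. Without background correction the log2 increase of probe 1 was 2.27 in KO and 2.77 in WT, and that of probe 3 was 1.21 in KO and 2.26 in WT. The gap between the genotypes' increases was thus wider for every Upp1 probe when no correction was applied.

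The genotype difference of Upp1 averaged over both conditions passed the test for all 3 probes. It was -2.13 ± 0.23 for probe 1 (4.39-fold lower in KO, adjusted p = 3.9e-05), -2.02 ± 0.22 for probe 2 (adjusted p = 3.9e-05) and -1.92 ± 0.18 for probe 3 (adjusted p = 1.1e-05) in the limma fit over all probes. At probe 1 it was -2.17 with IL-4 and -2.09 unstimulated, nearly the same in both conditions. At the other probes it was larger with IL-4, at -2.21 against -1.83 for probe 2 and -2.25 against -1.59 for probe 3. The near equality at probe 1 also depends on the background correction, as the increases above show. KO arrays lay below WT arrays without overlap in each condition for all 3 probes, a pattern that 8.3% of the 14438 probes showed. The call held under every alternative run, but only narrowly with robust eBayes. There the adjusted p was 0.0498 for probe 1, 0.0442 for probe 2 and 0.0105 for probe 3.

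Il20rb started close to background and was raised by IL-4 in both genotypes, most clearly at probe 1. Il20rb probe 1 (ILMN_3047030) had 438 and 250 in KO with IL-4, against 109 and 107 in unstimulated KO, and 419 and 579 in WT with IL-4, against 129 and 134 in unstimulated WT. The stimulated duplicates of KO differed 1.75-fold from each other and overlapped those of WT, whereas unstimulated KO lay below unstimulated WT. Il20rb probe 2 (ILMN_2541562) stayed near the threshold, with 118 and 103 in KO with IL-4, 91.5 and 94.9 in unstimulated KO, 117 and 115 in WT with IL-4 and 102 and 100.2 in unstimulated WT. At probe 2 as well, stimulated arrays were above unstimulated ones in each genotype, which describes the increase that the gene was chosen for.

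At probe 1 the IL-4 increase was 2.63 ± 0.25 log2 units in KO and 2.70 ± 0.25 in WT (SE), or 6.19- and 6.50-fold, and at probe 2 it was 0.68 ± 0.15 in KO and 0.51 ± 0.15 in WT. Without background correction the increase at probe 1 was 1.62 in KO and 1.91 in WT. The 2 probes thus disagree on the size of the increase and share its direction. The genotype difference averaged over both conditions was -0.66 ± 0.18 at probe 1 (1.58-fold lower in KO, adjusted p = 0.0288) and -0.28 ± 0.11 at probe 2 (adjusted p = 0.159). The call at probe 1 ended with no background correction (-0.43, adjusted p = 0.0787), with robust eBayes (adjusted p = 0.179) and without any 1 of 6 arrays, the exceptions being KO_IL4 replicate 1 and WT_IL4 replicate 1.

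Asz1 had the largest IL-4 increase of the group in KO, from a level just above background. Its intensity was 471 and 674 in KO with IL-4, against 108 and 114 in unstimulated KO. In WT it was 329 and 256 with IL-4, against 107 and 105 unstimulated. Stimulated KO stood above stimulated WT without overlap, and the 4 unstimulated arrays lay between 105 and 114, KO slightly above WT.

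The IL-4 increase of Asz1 was 3.44 ± 0.19 log2 units in KO and 2.47 ± 0.19 in WT (SE), or 10.9- and 5.53-fold, and ranked 9th in KO and 22nd in WT. The difference between the increases was 0.98 ± 0.26, the 10th highest of 14438 probes. Without background correction the increase was 2.34 in KO and 1.45 in WT, so the difference (0.89) depended less on the correction than the increases did. Averaged over both conditions, Asz1 was 0.66 ± 0.13 log2 units higher in KO (adjusted p = 0.0051). Both this average and the difference between the increases rest mainly on the stimulated arrays, so the call is not separate from how Asz1 was chosen. This average combines 1.15 with IL-4 and 0.17 unstimulated, and it passed under every alternative run, with adjusted p between 7.7e-04 and 0.0286 when 1 array was left out.

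Tuba8 was near or below background without IL-4, and its increase was larger in KO. Its intensity was 131 and 126 in KO with IL-4, against 85.2 and 88.8 in unstimulated KO, both below the threshold. WT cells had 103 and 98.9 with IL-4, against 90.9 and 93.9 unstimulated, of which only the last was above the threshold. Stimulated KO was above stimulated WT without overlap, and unstimulated levels have no order this close to background.

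With unstimulated KO below background, the increase of Tuba8 in KO has only a lower limit, and that limit depends on the background step. Set against the lowest signal above background, it was at least 2.27-fold after background correction with the offset of 16 and at least 1.38-fold on the deposited intensities, whose group means differed 1.48-fold. In WT the increase was 0.40 ± 0.14 log2 units, or 1.32-fold, after correction, and the deposited means differed 1.09-fold. The KO limit was above the WT increase on both scales, and the size of the difference between the increases is not measured. The average genotype difference was 0.25 ± 0.10 (adjusted p = 0.140), an average of 0.83 with IL-4 and an unstimulated value that rests on KO arrays below background. It passed without background correction (0.13, adjusted p = 0.0215) and with an offset of 50 (0.17, adjusted p = 0.0336).

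**Figure D1:**
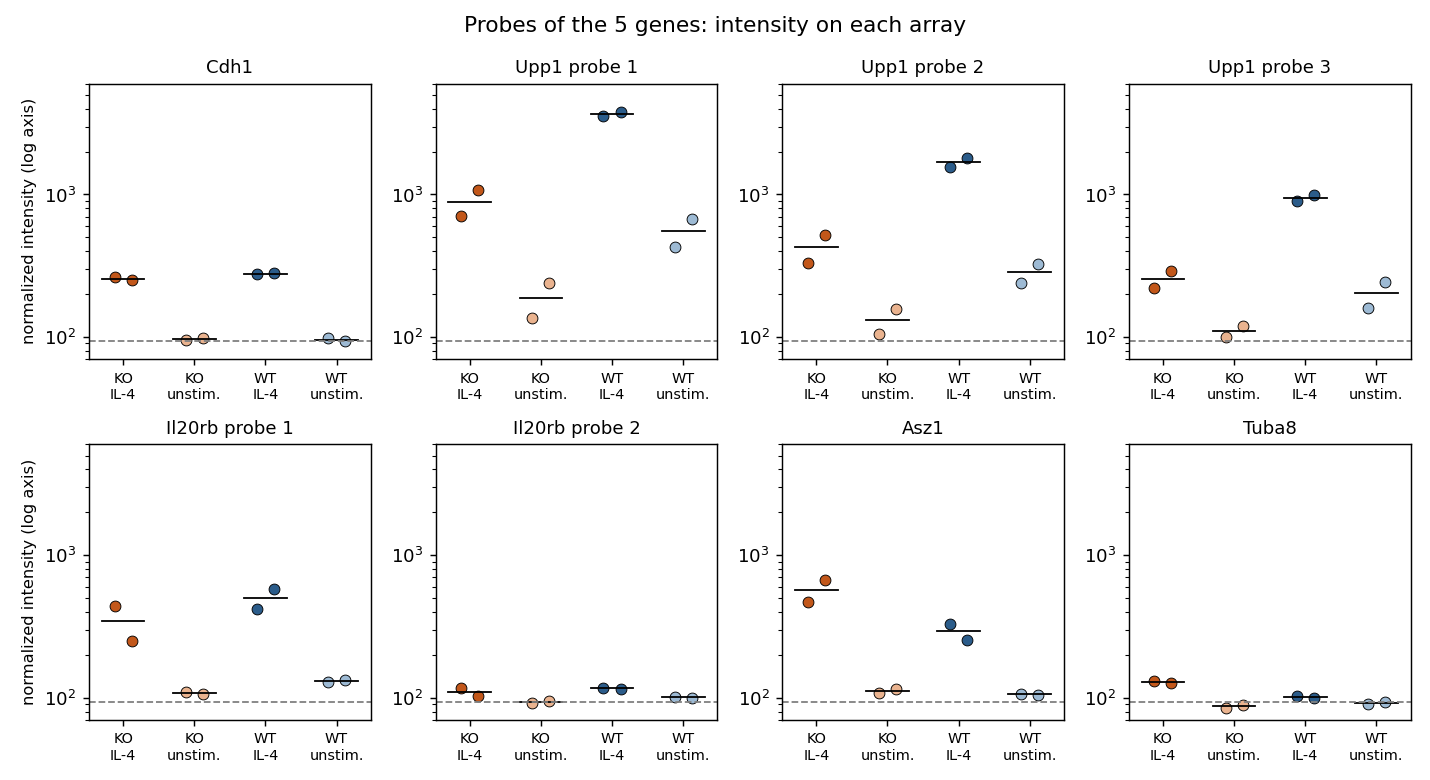
Normalized intensity (log axis) of the 8 probes of Cdh1, Upp1, Il20rb, Asz1 and Tuba8 on each of the 8 arrays. Points are arrays, bars group means and the dashed line the background threshold; Upp1 separates by genotype and by IL-4, Asz1 and Tuba8 are highest in KO with IL-4, and Cdh1 differs little between genotypes.

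**Figure D2:**
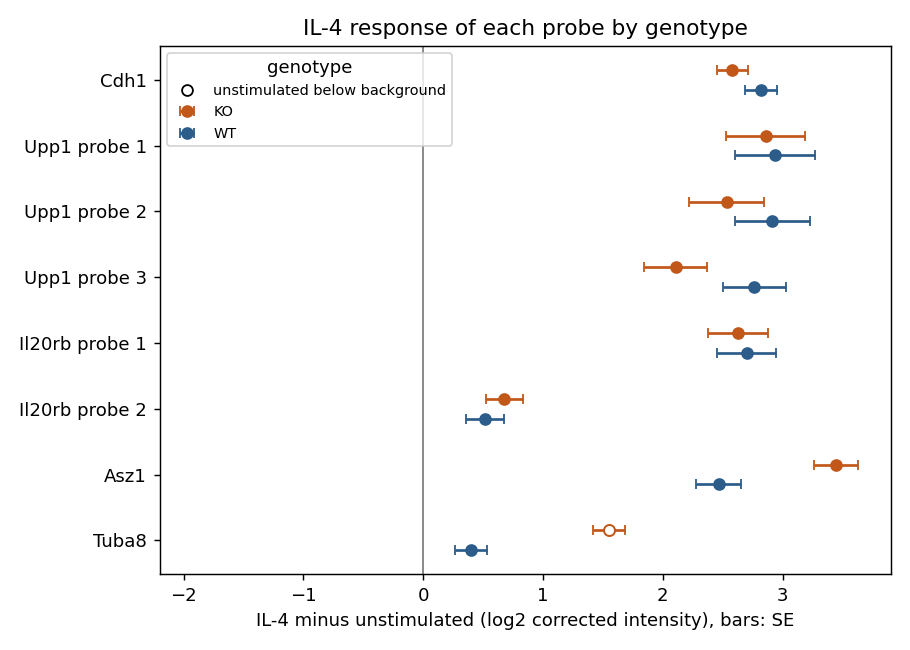
IL-4 minus unstimulated log2 intensity after background correction, with standard errors, for each probe in KO and WT. Upp1 probe 1 and Il20rb probe 1 have nearly equal increases in both genotypes, whereas those of Asz1 (3.44 in KO, 2.47 in WT) lie apart; the open marker of Tuba8 in KO is a fitted value against arrays below background.

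Over the group, 5 of the 8 probes, from 3 of the 5 genes, passed in the average genotype difference, against 9.2% of the 14438 probes tested. Of these 5, the 3 Upp1 probes read the same transcript. The call of Il20rb probe 1 was lost under several alternatives, and that of Asz1 is tied to how it was chosen. The count is therefore not a measure of enrichment in the group. Upp1 and Il20rb probe 1 were lower in KO and Asz1 was higher. The median of all probes was 0.01 log2 units in this contrast. Cdh1, Il20rb probe 2 and Tuba8 did not pass. In the difference between the responses, which was used to choose members, 0.104% of all probes passed.

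**Figure D3:**
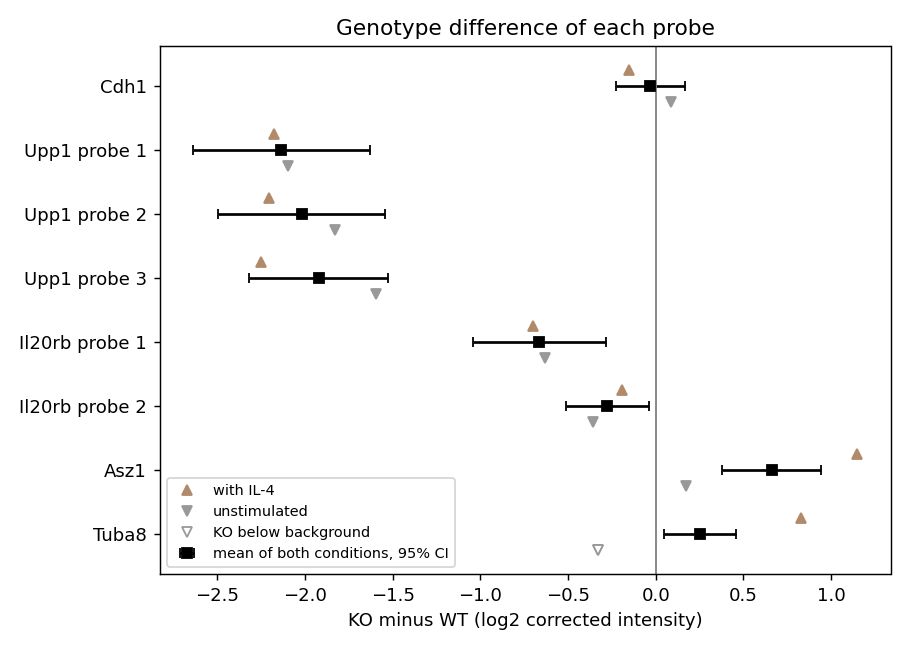
Genotype difference (KO minus WT, log2 corrected intensity) of each probe. Squares are the mean of both conditions with its 95% interval, upward triangles the IL-4 treated arrays and downward triangles the unstimulated arrays; the Upp1 markers lie well below 0 in both conditions, and the open triangle of Tuba8 rests on unstimulated KO arrays below background.

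Uridine made or taken up by a cell can be cleaved by the Upp1 enzyme or phosphorylated into the pyrimidine nucleotide pool, so the other genes of pyrimidine synthesis and salvage were read beside it. Of 22 listed genes other than Upp1 that were tested, 8 rose and 3 fell with IL-4 in KO, and 7 rose and 3 fell in WT. Over all genes, 9.16% rose and 9.56% fell in KO, and 7.64% rose and 8.35% fell in WT. Dctd, which deaminates deoxycytidylate, rose by 1.90 ± 0.13 log2 units in KO and 1.68 ± 0.13 in WT (adjusted p = 4.6e-07 and 1.8e-06). Ctps, the enzyme that makes CTP from UTP, rose by 1.04 ± 0.11 in KO and 0.86 ± 0.11 in WT (adjusted p = 2.2e-05 and 0.00013).

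Uck2, the kinase that phosphorylates uridine and cytidine, moved with IL-4 and genotype in the same directions as Upp1. Its intensity was 198 and 233 in KO with IL-4, against 116 and 116 in unstimulated KO, and 276 and 257 in WT with IL-4, against 161 and 146 in unstimulated WT. Each group stood apart from the others. Uck2 rose by 1.55 ± 0.14 log2 units in KO and 1.20 ± 0.14 in WT (adjusted p = 6.3e-06 and 6.9e-05), and was 0.61 ± 0.10 lower in KO on average (adjusted p = 0.0012).

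Cad, which starts pyrimidine synthesis, rose by 0.86 ± 0.13 in KO and 0.67 ± 0.13 in WT (adjusted p = 5.1e-04 and 0.0035), and was named after its values were seen. Nt5e, the surface nucleotidase CD73 that forms nucleosides outside the cell, fell by 0.98 in KO and 1.00 in WT. The calls for Dctd, Ctps, Uck2, Cad and Nt5e held without any 1 array. Upp2, the other uridine phosphorylase gene, stayed near the threshold at mean intensities of 92.4 in KO with IL-4, 95.8 in unstimulated KO, 93.0 in WT with IL-4 and 94.4 in unstimulated WT. In the average genotype difference Uck2, Tk1 and Upb1 passed, 3 of the 22 genes and all lower in KO, against 4.59% of all genes that were lower and 5.15% that were higher. The calls of Uck2 and Tk1 held without any 1 array and that of Upb1 did not, and Tk1 and Upb1 were named after their values were seen.

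**Figure D4:**
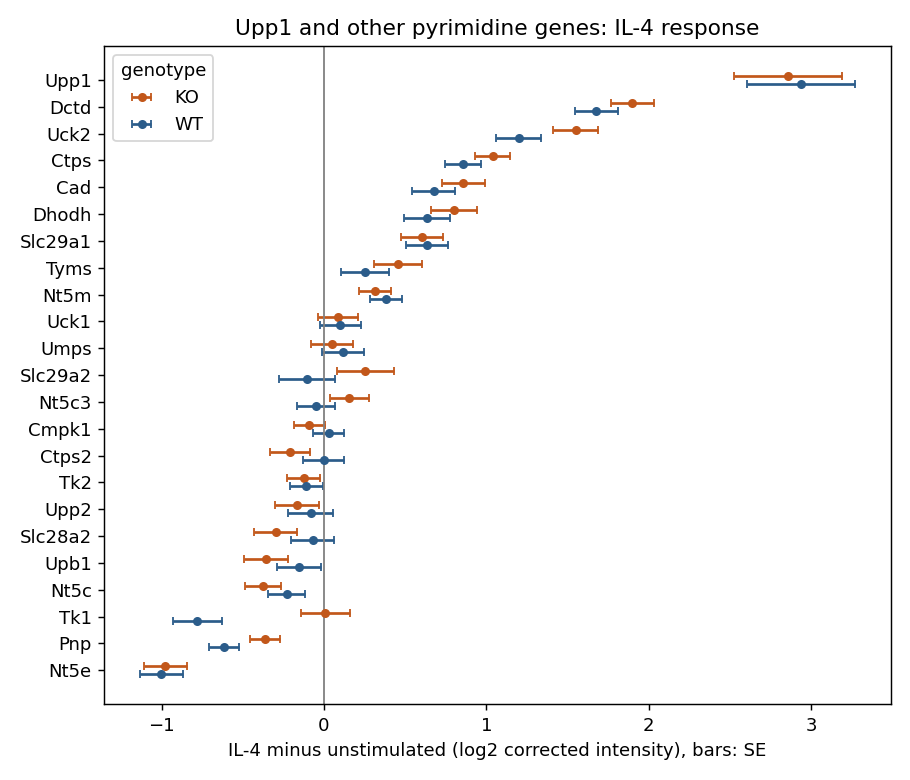
IL-4 minus unstimulated log2 corrected intensity, with standard errors, of Upp1 (brightest probe) and the 22 other tested genes of pyrimidine synthesis and salvage. Upp1, Dctd, Uck2 and Ctps lie at the upper end in both genotypes, and Nt5e lies near -1 in both.

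Markers that moved with genotype are given here beside the differences of Upp1, Il20rb probe 1 and Asz1. Of the 8 macrophage markers, 4 were higher in KO on average and 1 was lower, where 5.15% of all genes were higher and 4.59% lower. Adgre1, Fcgr1 and Gata6 were 0.60, 0.57 and 0.60 log2 units higher (adjusted p = 1.9e-05, 0.0028 and 4.7e-05), Mertk was 0.37 higher (adjusted p = 0.0094), and Cd14 was lower, with a difference of -0.60 (adjusted p = 1.3e-05). All these calls but that of Mertk held without any 1 array. The summed intensity of the 8 was 27531 to 27798 in KO with IL-4, 27510 to 28021 in unstimulated KO, 26444 to 27567 in WT with IL-4 and 28075 to 29260 in unstimulated WT.

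Of 7 tested B and T cell markers 3 were higher in KO and 0 lower. Over all genes, 5.15% were higher and 4.59% lower, shares that also stand beside the other marker sets of this paragraph. The T cell genes Cd3d and Cd3e were 0.90 and 0.59 log2 units higher in KO on average (adjusted p = 4.6e-04 and 0.0029), and the summed intensity of 10 B and T cell markers was 2717 to 3031 in KO with IL-4, 2594 to 2727 in unstimulated KO, 2136 to 2935 in WT with IL-4 and 2027 to 2692 in unstimulated WT. Of 6 tested dendritic cell and neutrophil markers, 0 were higher and 2 lower. Summed intensities of 10 dendritic cell and neutrophil markers were 1651 to 1879 in KO with IL-4, 2140 to 2271 in unstimulated KO, 1781 to 1909 in WT with IL-4 and 2794 to 3058 in unstimulated WT. Of these markers Retnlg was below background in KO. Of 6 tested mast cell and eosinophil markers, Hdc was higher in KO (0.57, adjusted p = 0.0183) and Mcpt4 and Tpsb2 were lower (-0.64 and -0.63, adjusted p = 0.0069 and 0.0459), and of these only the call of Mcpt4 held without any 1 array. The summed intensity of 11 such markers overlapped between genotypes, at 1873 to 2207 in KO with IL-4, 1710 to 2141 in unstimulated KO, 1971 to 2304 in WT with IL-4 and 1986 to 2345 in unstimulated WT. The part of these markers in the genotype differences was not tested.

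E-cadherin acts through catenins at the inner face of the membrane. Of 16 tested genes of this junction other than Cdh1, 0 rose and 1 fell with IL-4 in KO, where 9.16% of all genes rose and 9.56% fell. In WT 0 rose and 3 fell, where 7.64% of all genes rose and 8.35% fell. Their median log2 change was -0.07 in KO and -0.04 in WT, where all genes had medians of -0.01 and -0.02. Those that fell were the alpha-catenin genes Ctnna1, by 0.35 in KO and 0.28 in WT (adjusted p = 0.0117 and 0.0449), and Ctnna2, by 0.46 in WT (adjusted p = 0.0268), and the protease gene Adam15, by 0.38 in WT (adjusted p = 0.0161). Each of these calls was lost when 1 or another array was left out. The classical cadherins Cdh2, Cdh3 and Cdh5 and the catenins Jup and Ctnnd1 were below background, and Ctnnb1, beta-catenin, was well above it at mean intensities of 933 in KO with IL-4, 862 in unstimulated KO, 822 in WT with IL-4 and 852 in unstimulated WT.

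Cdh1 is also an epithelial gene, and the cavity is lined by mesothelium. Of 12 mesothelial and epithelial markers with a probe, 4 were above background on both arrays of each KO group and 3 in each WT group. Krt18, Krt19, Msln, Wt1 and Cldn4 were below background. The summed intensity of the 12 was 1113 to 1116 in KO with IL-4, 1091 to 1105 in unstimulated KO, 1095 to 1106 in WT with IL-4 and 1095 to 1109 in unstimulated WT. None of the 4 tested markers passed with IL-4 in either genotype.

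The cytokines read by the Il20rb receptor chain were not detected on these arrays: Il19, Il20 and Il24 were below background in every group, as was Il22. Il20ra, the chain that pairs with Il20rb, stayed near the threshold at mean intensities of 102 in KO with IL-4, 99.6 in unstimulated KO, 105 in WT with IL-4 and 96.9 in unstimulated WT. The list read for this family also held kinases, Jak2 and Tyk2 among them. Of its 11 tested genes other than Il20rb, 1 rose and 2 fell in KO, and 1 rose and 1 fell in WT. Over all genes, 9.16% rose and 9.56% fell in KO, and 7.64% rose and 8.35% fell in WT. The kinase Jak2 rose by 0.90 ± 0.10 log2 units in KO and 0.75 ± 0.10 in WT (adjusted p = 5.2e-05 and 2.8e-04). Il10ra, the ligand-binding chain of the IL-10 receptor, fell by 0.74 in KO and 0.50 in WT, and was 0.67 ± 0.09 lower in KO on average (adjusted p = 1.5e-04). The kinase Tyk2 fell by 0.46 in KO (adjusted p = 0.0195), a call that was lost without any 1 of the KO arrays. The fall of Il10ra in WT did not pass without WT_unstim replicate 1 or without either stimulated WT array (adjusted p between 0.0519 and 0.0829).

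Few other genes of the piRNA pathway that Asz1 belongs to were measurable. Of its 21 listed genes other than Asz1, 8 were below background, 4 had no probe and 9 were tested. Among the 9, 1 rose and 1 fell with IL-4 in KO (9.16% and 9.56% of all genes), and 1 rose and 3 fell in WT (7.64% and 8.35%). Ddx4, the germ-granule RNA helicase vasa, was the 1 that rose in both genotypes.

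Ddx4 had 126 and 139 in KO with IL-4, against 86.8 and 87.0 in unstimulated KO, and 117 and 111 in WT with IL-4, against 87.2 and 86.6 in unstimulated WT. All unstimulated arrays were below background and all stimulated ones above it, so only a lower limit of the rise can be given. The probe passed the filter only through its stimulated arrays, so its calls with IL-4, counted above, are not separate support for the rise. The rise was at least 2.41-fold in KO and 1.75-fold in WT after background correction, and at least 1.42-fold and 1.22-fold on the deposited intensities. Dnmt3l, a cofactor of DNA methylation in germ cells, went the other way, with a fall of 1.78 log2 units in KO and 2.11 in WT (adjusted p = 3.0e-04 and 9.3e-05), and was 1.17 ± 0.18 lower in KO on average (adjusted p = 7.7e-04). Piwil2, a piRNA-binding protein, and Dazl, an RNA-binding protein of germ cells, fell by 0.55 and 0.45 in WT (adjusted p = 0.0116 and 0.0200), and both calls were lost without WT_unstim replicate 1 or WT_IL4 replicate 1, that of Dazl without either other WT array as well. Piwil2 was 0.65 ± 0.09 lower in KO on average (adjusted p = 3.8e-04), a call that held without any 1 array, where Asz1 was higher.

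Of 8 germ cell markers with a probe, 2 were above background on both arrays of KO with IL-4, 0 in unstimulated KO, 2 in WT with IL-4 and 2 in unstimulated WT. Their summed intensity was 768 to 773 in KO with IL-4, 719 to 721 in unstimulated KO, 750 to 751 in WT with IL-4 and 722 to 727 in unstimulated WT, and Sycp1, a meiosis protein, was below background. The sum includes Ddx4, whose mean was 133 with IL-4 and 86.9 unstimulated in KO, and 114 and 86.9 in WT. Its higher values with IL-4 are therefore not separate from the rise of Ddx4.

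The genes beside Asz1 on chromosome 6 were read, in the gene order of assembly GRCm38.p6, because 2 of them increased with IL-4 as it did. They were chosen for these values, so their increases are given with no test. Over all genes, 5.73% passed as higher with IL-4 in both genotypes. Wnt2, a secreted Wnt ligand and the next protein-coding gene on one side, had 710 and 719 in KO with IL-4, against 157 and 170 in unstimulated KO, and 420 and 335 in WT with IL-4, against 116 and 121 in unstimulated WT. Each of the 4 groups stood apart, with KO above WT in both conditions. The increase of Wnt2 was 6.63-fold in KO and 5.83-fold in WT (log2 2.73 ± 0.14 and 2.54 ± 0.14, SE).

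St7, the gene beyond Wnt2, had 222 and 229 in KO with IL-4, against 112 and 110 in unstimulated KO, and 171 and 159 in WT with IL-4, against 112 and 113 in unstimulated WT. Its increase was 1.82 ± 0.12 log2 units in KO and 1.08 ± 0.12 in WT (SE). A second St7 probe, near background, differed by 0.19 in KO and 0.14 in WT. As with Asz1, the stimulated KO arrays of both neighbours lay above the stimulated WT arrays. Wnt2 was 0.98 higher in KO on average (adjusted p = 1.7e-05), and St7 0.33 higher (adjusted p = 0.0312). For St7 that difference did not pass without any 1 of 7 arrays (adjusted p between 0.0585 and 0.134). It rests on the stimulated arrays, since the unstimulated St7 means were 111 in KO and 112 in WT. As for Asz1, the St7 call is therefore not separate from how the gene was chosen.

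The other tested genes within 6 places of Asz1 (Lsm8, Ankrd7, Cav1 and Cav2) did not pass as higher in either genotype. On the other side its neighbour Cftr was below background, Lsm8 changed by -0.02 in KO and -0.29 in WT, and Ankrd7 by 0.09 in KO and 0.03 in WT, none of which passed. Beyond St7, Capza2 and Met were below background. Farther on, Cav1 fell by 1.77 log2 units in KO and 2.01 in WT, and Cav2 by 1.27 in KO and 1.09 in WT. The annotated intervals of St7, Wnt2 and Asz1 do not overlap.

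**Figure D5:**
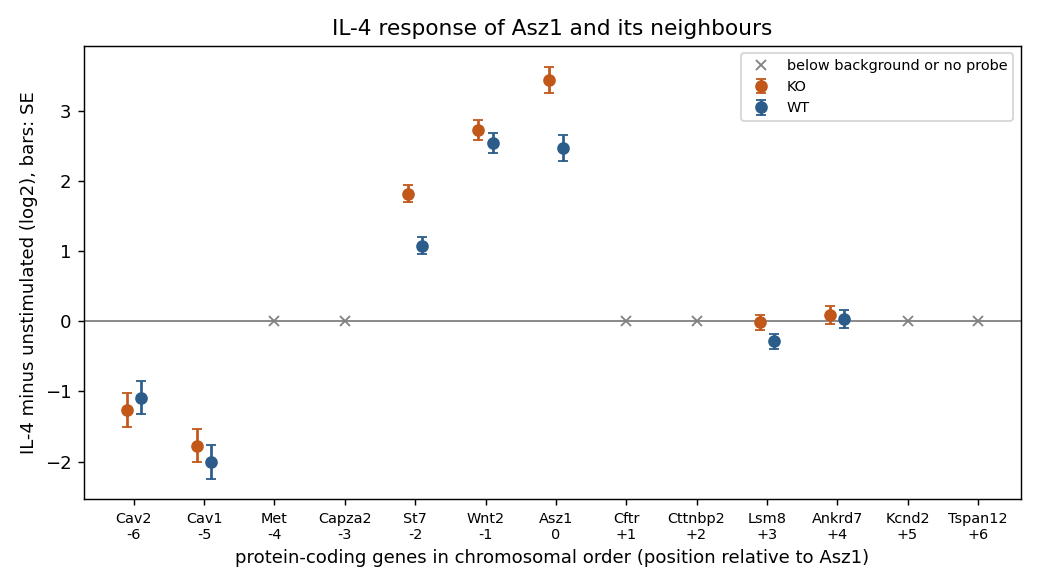
IL-4 minus unstimulated log2 corrected intensity, with standard errors, of Asz1 and the 6 protein-coding genes on each side in chromosomal order. St7, Wnt2 and Asz1 lie above 0 in both genotypes, Cav1 and Cav2 below 0, and crosses mark genes below background or without a probe.

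Of 19 tested genes of tubulins and tubulin folding other than Tuba8, 1 rose and 3 fell with IL-4 in KO (9.16% and 9.56% of all genes), and 0 rose and 3 fell in WT (7.64% and 8.35%). The median log2 change was -0.02 in KO and -0.08 in WT. Tubb2b, a beta-tubulin, fell by 0.62 in KO and 0.53 in WT (adjusted p = 0.0022 and 0.0072). The folding factor Tbcb fell by 0.46 in KO and 0.33 in WT (adjusted p = 0.0024 and 0.0216), and for both genes the KO call held without any 1 array and the WT call did not. The 1 gene that rose, the beta-tubulin Tubb6, did so by 0.37 in KO (adjusted p = 0.0163), and lost the call without 3 of the 4 KO arrays (adjusted p between 0.0767 and 0.169). The alpha-tubulin Tuba1a fell by 0.42 in WT (adjusted p = 0.0202), a call that was lost when 1 or another WT array was left out. Its change of -0.33 in KO did not pass in the main fit (adjusted p = 0.0579). Tuba1b changed by -0.06 in KO and 0.16 in WT and did not pass. In the average genotype difference 0 of the 19 passed, where 5.15% of all genes were higher and 4.59% lower.

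For scale, 17 of 19 tested genes known to be induced by IL-4 rose in KO and 16 in WT, and none fell. Over all genes, 9.16% rose and 9.56% fell in KO, and 7.64% rose and 8.35% fell in WT. The chitinase-like protein gene Chil3 rose 115-fold in KO and 87.8-fold in WT, and the mannose receptor Mrc1 13.4- and 13.3-fold, so the increases of Cdh1, Upp1, Il20rb and Asz1 were smaller than that of Mrc1 on this scale in both genotypes. Of 9 tested genes of IL-4 receptor signalling, 2 rose and 2 fell in each genotype, beside the same shares of all genes. Cish and Socs1, which restrain cytokine signalling, rose in both. The phosphatase gene Ptpn6 fell in both, by 0.58 in KO and 0.56 in WT (adjusted p = 0.0014 and 0.0022), and these calls held without any 1 array. Tyk2 fell in KO, as given above, and the receptor chain Il13ra1 fell by 0.88 in WT (adjusted p = 0.0053), a call that was lost without WT_IL4 replicate 1 (adjusted p = 0.0666). Stat6 was above background in every group.

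The genes with the most similar profiles over the 8 arrays were found by Pearson's r of log2 values against 9860 other genes. The arrays share 4 groups, so a high r mainly says that group levels lie in the same order, and many genes pass such a mark. For Cdh1 they were Cfap206 (r = 0.999), the cytokine signalling inhibitor Cish (0.997) and the nuclear receptor Pparg (0.997). Cfap206 and Pparg were similar between genotypes. Cish had a mean intensity of 822 in KO and 1080 in WT with IL-4, and its average genotype difference of -0.21 did not pass. For Asz1 they were Ddx4 (0.998), H2-DMb1 (0.997) and the tetraspanin Cd53 (0.996). Of these, Ddx4 was below background on every unstimulated array, as given above, so its r rests on its stimulated arrays. For Il20rb they were the collagenase Mmp13 (0.994), Mrpl50 (0.990) and Elac2 (0.989), of which Mmp13 had a mean intensity of 1860 in KO with IL-4, 394 in unstimulated KO, 2787 in WT with IL-4 and 482 in unstimulated WT.

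Upp1 had the fewest close matches, with 8 genes above r = 0.95, against 225 for Cdh1, 169 for Asz1, 111 for Il20rb and 15 for Tuba8. Its nearest were the cytokine receptor Il27ra (0.970), Olfr1317 (0.969), which stayed near background, and the phosphatase Ptprj (0.967). None of these 3 had a change of the size of Upp1: Il27ra increased by 0.56 log2 units in KO and 0.73 in WT. For Tuba8 the nearest were Klrg1 (0.989), Apbb1ip (0.985) and Ormdl3 (0.984), of which Klrg1 stayed near background.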

How the data were processed

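The authors deposited a table of normalized probe intensities on a linear scale; per the submitters' processing notes it was made with GenomeStudio, whose version and settings are not given in the sources used here. After sorting, its columns agree within 0.570 intensity units, so it was treated as quantile-normalized. A second deposited table, of signals not normalized, was not used because its 8 signal columns (16 with detection p-values) carry headings that match no label. Normexp with a saddle-point fit and an offset of 16 was used for background, and log2 values of all 8 arrays were fitted as 4 group means with limma 3.58.1 in R 4.3.3 (eBayes with a variance trend, 4 residual and 9.41 prior degrees of freedom). No further normalization was applied. A fold change is therefore on the scale of corrected log2 intensity plus offset, and depends on both for dim probes.

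The background threshold lay 1.64 standard deviations above the mode of each array's dim probes, with the deviation taken from the side below the mode. It called 54.1% to 54.8% of probes on each array. Tests covered the 14438 probes that exceeded it on both duplicates of any group, and p-values were adjusted by Benjamini-Hochberg over all of them, with a threshold of 0.05. For gene lists and similar profiles, the probe with the highest mean stood for each of 9861 genes. The only contrast of the members that was tested is the genotype difference averaged over both conditions, which in this balanced design is orthogonal to the IL-4 responses and to their difference. For Asz1 and Tuba8, near background without IL-4, both the average and that difference rest mainly on the stimulated arrays. The average of these 2 genes is therefore not independent of how they were chosen. The number of arrays limits the precision.

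Of the probes, 23978 carry 1 gene symbol, 0 several and 1719 are unnamed here, and 23962 matched RefSeq (GRCm38.p6) by Entrez identifier with 0 symbols changed. No build is named for the array, so that table served for names and gene order only. Named genes are all member probes, the 3 most similar genes of each, up to 4 listed genes past the threshold per list, Chil3, Mrc1 and Fcer1g. Marker genes, genes below background, neighbours and other genes that did not pass were named besides. Members and lists were chosen with earlier results of these data known. Alternatives were no background correction, an offset of 50, other filters and thresholds, 1 value per gene, other variance models, replicate blocks and leaving out each array. The fit was tested on simulated data. Figures were drawn with matplotlib 3.10.9.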

Additional observations from a re-analysis of the deposited data

How the results depend on the processing

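With 2 arrays a group and unstimulated levels near background for most member probes, sizes depend on the background step more than directions do. The number of probes past the threshold in the average genotype difference (1328) stayed between 965 and 1122 when 1 array was left out, and the calls of Upp1 and Asz1 held under every alternative, with log2 differences of -2.46 to -1.80 for Upp1 probe 1 and 0.51 to 0.81 for Asz1 without 1 array. With robust eBayes the calls of Upp1 probes 1 and 2 held only narrowly (adjusted p = 0.0498 and 0.0442). The genotype difference of Il20rb probe 1 lost its call with no background correction (-0.43), an offset of 50 (-0.50, adjusted p = 0.0579), the mean of a gene's probes (-0.47, adjusted p = 0.0538) and robust eBayes (-0.66), and ranged from -0.92 to -0.41 when 1 array was left out. Tuba8 gained a call with no background correction (0.13) and an offset of 50 (0.17), and ranged from 0.19 to 0.31 without 1 array. Il20rb probe 2 ranged from -0.40, past the threshold without KO_IL4 replicate 1, to -0.15, and Cdh1 from -0.09 to 0.0292. The cause of these shifts was not tested.

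The count for the difference between the responses was 15, and became 24 with no background correction, 24 with no filter, 7 with probes above background on all arrays and 5 to 14 when 1 array was left out. Leaving out 1 array gave 1308 to 2144 probes for the response in WT and 1436 to 2490 in KO. The difference between the responses turned sign for Il20rb probe 1 with the mean of a gene's probes (0.0457). Without 1 array it ranged from -0.74 to 0.58 for Upp1 probe 1, -0.97 to 0.21 for Upp1 probe 2, -0.58 to 0.44 for Il20rb probe 1 and -0.0796 to 0.40 for Il20rb probe 2, so its direction is not settled for these probes. At Upp1 probe 3 it stayed negative, from -1.12 to -0.20. For Asz1 it stayed between 0.68 and 1.27 and for Tuba8 the fitted value, which rests on arrays below background, between 1.03 and 1.27. At a threshold of 3 standard deviations, Cdh1 was above background on 6 of 8 arrays, Il20rb probe 2 on 6 and Tuba8 on 4.

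The titles number the duplicates. Deviations from the group means of same-numbered arrays correlated at 0.21 between the KO groups and 0.14 between the WT groups, so that some deviation is shared within a genotype, and at -0.10 to 0.02 across genotypes, so the numbers were not taken as pairs there. All 3 Upp1 probes were higher on replicate 2 in each of the 4 groups. With the replicate number as a block, 1417 probes passed in the average genotype difference and no member's call changed (adjusted p = 1.4e-07 for Upp1 probe 1, 0.0249 for Il20rb probe 1 and 0.0044 for Asz1). A random block of the replicate number in each genotype, an alternative chosen after seeing the data, gave 1200 probes and 24 for the difference between the responses, with the same member calls.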
